A study of Brassica napus with 2 samples.

Results

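3-Ketoacyl-CoA synthases (KCS) were followed in seeds of *Brassica napus* by RNA-seq. Members were the unigenes (assembled transcripts, 1 representative per locus of the assembly) with an assigned *B. napus* gene and a Swiss-Prot description as 3-ketoacyl-CoA synthase. The rule found 31 of 50366 unigenes, on 21 assigned genes and under 17 Swiss-Prot names, and used no measured value. Whole seeds were collected 26 days after flowering from the yellow-seeded line Cy2Y (genotype *YY*), set against its brown-seeded near-isogenic line Cy2B (genotype *yy*), both grown in the field. Both lines were derived by repeated selfing from 1 heterozygous plant, and each was sequenced as 1 library of polyA RNA. The near-isogenic pair was compared to find genes that go with yellow seed coat under control of the embryo genotype. With 1 library per line there was no replicate check, and every test below compares the libraries and not the lines. Because whole seeds were ground, fewer cells of a type and less RNA per cell cannot be told apart.

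KCS enzymes catalyse the condensation of an acyl-CoA with malonyl-CoA, the first step of each elongation round in the endoplasmic reticulum. A ketoacyl reductase, a dehydratase and an enoyl reductase complete the round, and these are shared by all chains, whereas the KCS present sets which chain lengths are made. In *B. napus* and Arabidopsis, *KCS18* (*FAE1*) elongates oleic acid in the embryo towards the erucic and eicosenoic acids of seed oil. Other members, such as *KCS6* (*CUT1*) in Arabidopsis, make the longer chains of cuticular wax, and others again those of suberin.

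Counts summed over all unigenes came to 23236549 reads in yellow and 23575395 reads in brown seeds. These sums served as library totals and are smaller than the numbers of reads sequenced. A unigene was called when its scaled reads differed more than 2-fold and Fisher's exact test, adjusted by Benjamini-Hochberg over all unigenes, gave a value under 0.05. This rule took 3.28% of all unigenes as higher in yellow seeds and 1.46% as lower. Among the 29239 unigenes with at least 20 reads over both libraries, called measured here, these shares were 3.02% and 1.32%. Proteins of the maturing embryo (storage proteins and oil bodies) were called higher in 23 of 30 measured unigenes and lower in 1. Over all 34 unigenes of this list the summed level was 3012 RPKM in yellow and 936.3 RPKM in brown seeds. RPKM is the read count scaled by unigene length and by library size. For seed coat proteins the calls were 4 higher and none lower of 54 measured. Sums over all 69 unigenes of the list were 4687 RPKM in yellow and 4822 RPKM in brown seeds. Of the 54 measured, 41 carried the broad names *ARA12* or *TT12*, among them all 4 called. The other 13 had no call, with sums of 1623 RPKM in yellow and 1651 RPKM in brown seeds. Among them the 8 unigenes of *BAN*, *TT2*, *TT8*, *TT16*, *MYB5* and *GL2* all had ratios below 1. For *TT2*, *TT8*, *TT16* (comp40774_c0) and *GL2* (comp49107_c0) the intervals for counting error included 1. The *CESA5* unigenes comp50957_c0 (0.896) and comp55002_c0 (0.976) were also below 1. Above 1 were *TT10* at 1.16 (1.14 to 1.18), *GATL5* at 2.03 (1.03 to 4.17) and *CESA5* comp41939_c0 at 1.78 (0.695 to 4.88). For endosperm proteins none of 8 measured was called, with sums over all 12 unigenes of 68.1 RPKM in yellow and 75.2 RPKM in brown seeds.

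Of the 31 members, 5 were called higher in yellow seeds and 3 lower, or 16.1% and 9.68%, where 3.28% and 1.46% of all unigenes were. Among the 15 measured members the calls were 2 higher, 2 lower and 11 not called, or 13.3% in each direction, where 3.02% and 1.32% of all measured unigenes were. With edgeR's exact test and an assumed biological coefficient of variation between seed lots, the 4 measured members stayed called at 0.2 and none was called at 0.4. *KCS18*, the seed oil elongase, was about 4-fold higher in yellow seeds. The 2 measured *KCS21* unigenes were more than 3-fold lower. *KCS6*, the wax-type elongase, was 1.94-fold lower, just short of the fold required, and a poorly expressed *KCS16* was higher. The median log2 ratio of the 15 measured members (1 read added per library) was 0.31, against -0.0011 over all measured unigenes. With the 2 measured KCS unigenes that had no assigned gene, the median over 17 was 0.12. With 1 read added per library, ratios outside 2-fold made up 26.7% of the 15 measured members and 6.44% of all measured unigenes.

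**Figure D1:**
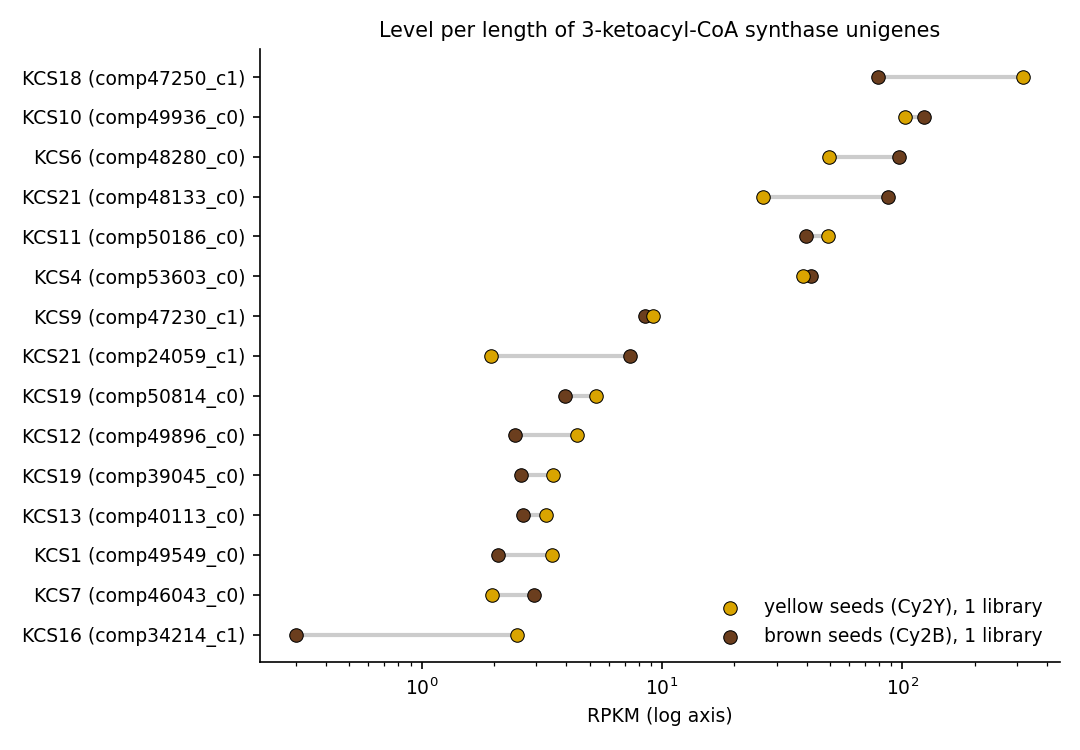
RPKM (log axis) of the 15 measured members in the yellow and the brown library, with a grey line joining the 2 values of a unigene. *KCS18* is at 319 RPKM in yellow and 79.5 RPKM in brown seeds, while *KCS21* (comp48133_c0) is at 26.3 RPKM in yellow and 87.0 RPKM in brown seeds.

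*KCS18* (comp47250_c1, 1747 bp) was assigned to *BnaA08g11130D* on chromosome A08, from 10187601 to 10189121 on the minus strand of the *B. napus* cv. Darmor-*bzh* genome. The gene spans 1521 bp, which is a multiple of 3. The study lists part of this unigene on the antisense strand. Its sense strand ends the reading frame as printed below. This was the only member sequence available, and its unigene had the largest difference in RPKM of the family. It was not compared with other copies of the gene. Lower case is coding sequence and the capitals mark the stop codon:
KCS18 coding end: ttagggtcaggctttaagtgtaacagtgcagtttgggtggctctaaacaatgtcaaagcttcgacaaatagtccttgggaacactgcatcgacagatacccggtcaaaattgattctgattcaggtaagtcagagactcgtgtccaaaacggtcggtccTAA
These 162 bases are 54 codons with the stop, and 45.1% of the bases are G or C. The study also designed a primer pair for the quantitative PCR of this gene, which gives a product of 158 bp and marks the stretch by which the gene can be measured again:
KCS18 forward primer: gcccatgaaggtaacgaaaa
KCS18 reverse primer: tgcaacaaggagacgatgag
Neither primer lies within the 399 bases listed. The study ran quantitative PCR on a choice of the genes it found higher in yellow seeds, and reports a high correlation with RPKM. No PCR values were used here.

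*KCS18* had 12959 reads in yellow seeds, against 3275 reads in brown seeds, or 319 RPKM and 79.5 RPKM. The scaled ratio was 4.01 (95% interval 3.86 to 4.17), a log2 ratio of 2.01, and *KCS18* was called higher. Intervals here are exact binomial and cover counting error only. By RPKM it ranked at place 230 of the unigenes with a read in yellow seeds and at place 1380 in brown seeds. Among 8359 unigenes with an assigned gene, a description and a mean of at least 10 RPKM, 21 had a ratio as high or higher. Embryo storage and oil body proteins moved in the same direction, with a median log2 ratio of 2.24 over the 30 measured unigenes, and their part in the *KCS18* difference was not tested. *B. napus* carries A and C copies of most genes, and reads of a near-identical copy may be counted in the same unigene.

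*KCS21* was represented by 4 unigenes on 3 genes, and all 4 had fewer reads in yellow seeds. The main one (comp48133_c0, 1801 bp) was assigned to chromosome C09, from 48410795 to 48412186 on the minus strand. It had 1101 reads in yellow seeds, against 3697 reads in brown seeds, or 26.3 RPKM and 87.0 RPKM. It was 3.31-fold lower (95% interval 3.09 to 3.54; log2 ratio -1.73) and was called lower. Its place by RPKM was 5295 in yellow and 1229 in brown seeds. Of the 8359 unigenes named above, 1 had a lower ratio. The second measured *KCS21* unigene (comp24059_c1) lies on C02, from 1174231 to 1175619, and had 25 reads in yellow seeds, against 96 in brown seeds. Its log2 ratio of -1.92 was the lowest of the measured members, and it was called lower, 3.78-fold (2.42 to 6.14). A shorter unigene of the same C02 gene (comp24666_c0) had 0 reads in yellow and 5 reads in brown seeds and was not called. The third *KCS21* gene, on a scaffold without a chromosome, had 0 reads in yellow and 10 reads in brown seeds (comp24059_c0) and was called lower. With 3 reads in place of 0 it was at least 3.29-fold lower, and the counting interval of its ratio reached up to 0.453. Summed over the name, *KCS21* had 1126 reads in yellow and 3808 reads in brown seeds. The separate unigenes may share reads of near-identical copies.

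The *KCS18* unigene stood at 12.1 times the RPKM of the main *KCS21* unigene in yellow seeds and at 0.913 times in brown seeds. Within the family the order of levels therefore differed. In yellow seeds *KCS18* came first, followed by *KCS10*, *KCS6*, *KCS11*, *KCS4* and *KCS21*. In brown seeds *KCS10* came first, followed by *KCS6*, *KCS21*, *KCS18*, *KCS4* and *KCS11*. These 6 unigenes were the members at 10 RPKM or more in either library.

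**Figure D2:**
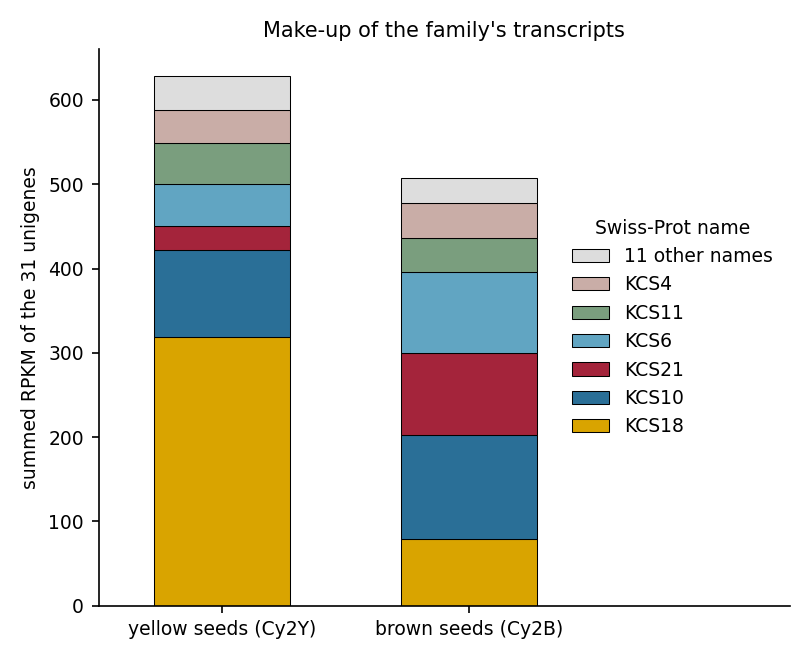
Summed RPKM of the 31 members in the yellow (left) and the brown library (right), stacked by Swiss-Prot name. *KCS18* makes up 50.8% of the sum in yellow and 15.7% in brown seeds, and *KCS21* 4.49% in yellow and 19.2% in brown seeds.

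The members together took 0.112% of the reads counted over all unigenes in yellow seeds and 0.0906% of those in brown seeds. Their summed level was 629 RPKM in yellow and 507 RPKM in brown seeds, a ratio of 1.24. Without *KCS18* the sum was 310 RPKM in yellow and 428 RPKM in brown seeds, a ratio of 0.724. *KCS18* thus held 50.8% of the family's RPKM in yellow and 15.7% in brown seeds. The share of *KCS10* was 16.4% in yellow and 24.2% in brown seeds, and that of *KCS6* was 7.92% and 19.0%. *KCS11* held 7.83% in yellow and 7.85% in brown seeds.

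Among the synthases known from Arabidopsis for wax and cuticle, *KCS6* (comp48280_c0, chromosome A07, 18410789 to 18413070) had 2064 reads in yellow seeds, against 4063 reads in brown seeds. It was at 49.8 RPKM in yellow and 96.6 RPKM in brown seeds. The ratio was 0.515 (0.489 to 0.544) and the log2 ratio -0.96, which did not reach the threshold of -1, so that *KCS6* was not called. Its counting interval on the log2 scale, -1.03 to -0.88, included the threshold and excluded 0. *KCS10* (*FDH*, comp49936_c0, A04), which in Arabidopsis keeps epidermal surfaces from fusing, had 4419 reads in yellow and 5351 reads in brown seeds. Its ratio was 0.838 (0.805 to 0.872), a smaller difference that was not called. *KCS1* (comp49549_c0, C08), which acts in wax synthesis in Arabidopsis, had 146 reads in yellow and 88 reads in brown seeds, with a ratio of 1.68 (1.28 to 2.22). *KCS13* (*HIC*, comp40113_c0, C04), known in Arabidopsis for the control of stomatal number, had 129 reads in yellow and 105 reads in brown seeds, with a ratio of 1.25 (0.956 to 1.63). None of these was called, and the interval of *KCS13* included a ratio of 1.

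*KCS16*, which in Arabidopsis extends the longest chains of leaf wax, was nearly absent from brown seeds. Its measured unigene (comp34214_c1, A03, 26480366 to 26481814) had 41 reads in yellow seeds, against 5 reads in brown seeds, or 2.50 RPKM and 0.300 RPKM. It was called higher, with a ratio of 8.32 and a wide interval of 3.29 to 27.0. Both other unigenes of this A03 gene had reads in yellow seeds only. comp34214_c0 had 14 reads in yellow and 0 reads in brown seeds and was called higher, at least 4.73-fold with 3 reads in place of 0 and with a counting interval of the ratio from 3.37 upwards. comp4887_c0 had 7 reads in yellow and 0 reads in brown seeds and was called higher, at least 2.37-fold on the same footing, but its counting interval began at 1.46, below 2-fold. Summed over the gene, *KCS16* had 62 reads in yellow and 5 reads in brown seeds, a ratio of 12.6 (5.11 to 40.1). Even so the name *KCS16* held 0.807% of the family's RPKM in yellow and 0.0592% in brown seeds.

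**Figure D3:**
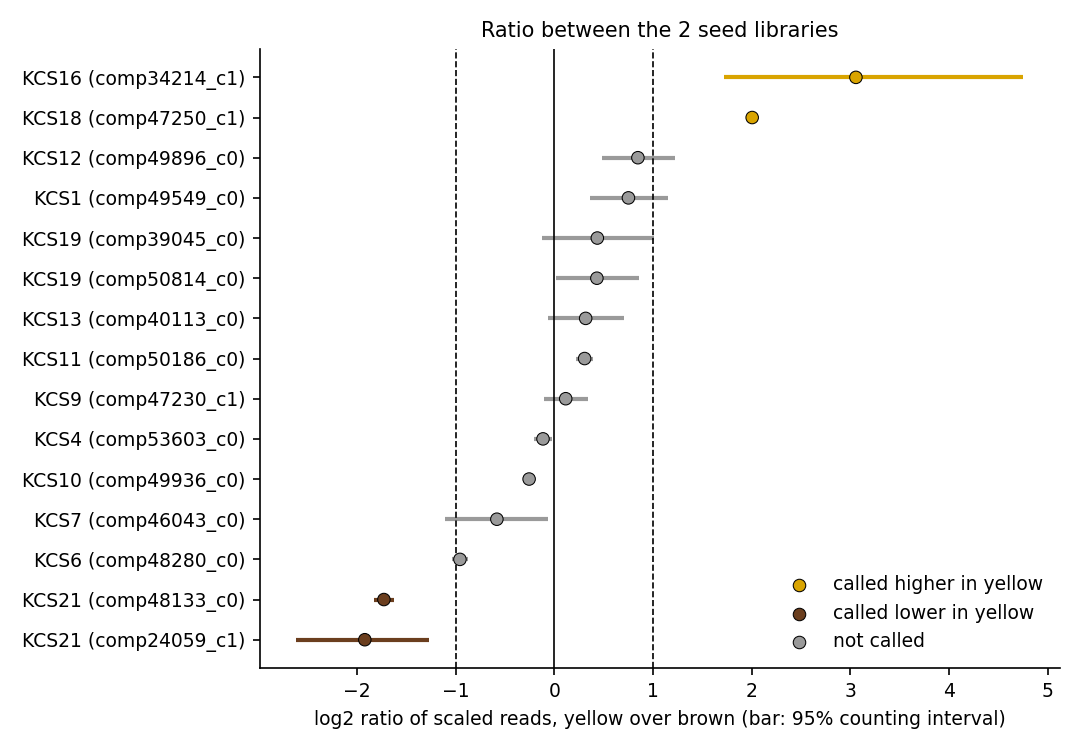
Log2 ratio of scaled reads, yellow over brown, for the 15 measured members, with bars for the 95% counting interval and dashed lines at the 2-fold thresholds. *KCS16* and *KCS18* lie above the upper threshold and both *KCS21* unigenes below the lower one, and the bar of *KCS6* at -0.96 crosses the lower threshold.

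The remaining measured members were not called. *KCS11* (comp50186_c0) lies on C09, 189041 bp from the main *KCS21* gene, and went the other way, with 2277 reads in yellow and 1867 reads in brown seeds, with a ratio of 1.24 (1.16 to 1.32). *KCS4* (comp53603_c0, A06) had 1932 reads in yellow and 2122 reads in brown seeds, with a ratio of 0.924 (0.868 to 0.983). *KCS9* (comp47230_c1, A07), linked in Arabidopsis to the very-long-chain acids of suberin and sphingolipids, had 346 reads in yellow and 324 reads in brown seeds, with a ratio of 1.08 (0.928 to 1.26). *KCS12* (comp49896_c0, C04) had 172 reads in yellow and 97 reads in brown seeds, and its log2 ratio of 0.85 was the highest of the members not called. Both *KCS19* unigenes belong to 1 gene on C07 and gave a ratio of 1.35 each: comp50814_c0 had 113 reads in yellow and 85 reads in brown seeds, and comp39045_c0 had 64 in yellow and 48 in brown seeds. *KCS7* (comp46043_c0, A07) had 54 reads in yellow and 82 reads in brown seeds, with a ratio of 0.668 (0.465 to 0.953). Of the 11 measured members not called, 8 had an interval that excluded a ratio of 1 and 3 had one that included it. Over the 15 measured members, 9 ratios were above 1 and 6 below.

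The other 16 members had 2 to 15 reads over both libraries. Of these, 3 were called higher and 1 lower. The 3 were both short *KCS16* unigenes of the A03 gene and a *KCS3* unigene (comp316674_c0), with 7 reads in yellow and 0 reads in brown seeds. *KCS3* restrains *KCS6* in Arabidopsis. A second unigene of the same *KCS3* gene (comp407617_c0) had 0 reads in yellow and 4 reads in brown seeds, and summed over the gene the counts of 7 and 4 were not called. At this depth 7 reads against 0 passed the rule in the higher direction only, and the lowest total of a unigene called lower was 8 reads. The 12 members under 20 reads that were not called were the short *KCS21* unigene of C02 (comp24666_c0) and the *KCS3* unigene comp407617_c0, both given above, and 10 others. *KCS1* on A10 had 10 reads in yellow and 5 reads in brown seeds in comp27993_c0, and 2 in each library in comp347057_c0. *KCS15* on C07 had 7 reads in yellow and 6 reads in brown seeds in comp263622_c0, and 4 in yellow and 5 in brown seeds in comp251419_c0. *KCS7* on a scaffold of A02 had 6 reads in yellow and 7 reads in brown seeds in comp37808_c0, 3 in yellow and 4 in brown seeds in comp33757_c0, and 0 in yellow and 3 in brown seeds in comp10607_c0. A gene on C01 had 4 reads in yellow and 0 reads in brown seeds in comp311023_c0, described as *KCS8*, and 3 in yellow and 0 in brown seeds in comp505070_c0, described as *KCS16*. *KCS17* on C05 had 0 reads in yellow and 2 reads in brown seeds in comp464809_c0. No member carried the name *KCS2*, *KCS5*, *KCS14* or *KCS20*.

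The members had more in common than their description. All 15 measured members carried the Pfam domain of FAE1/CUT1/RppA proteins, as did 23 of the 31 members, and 23 of the 31 were given the KEGG orthology entry for 3-ketoacyl-CoA synthase. The 21 genes were spread evenly over both subgenomes, with 10 on A and 10 on C chromosomes and 1 without a chromosome. Their spans ran from 1350 to 3549 bp with a median of 1521 bp, against 1808 bp over all 24306 assigned genes. The span was a multiple of 3 in 85.7% of them, against 44.9% of all assigned genes. Unigenes under 20 reads were short fragments with a median of 327.5 bp, against 1692 bp for the measured members, and 8 of the 21 genes were split over several members.

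**Figure D4:**
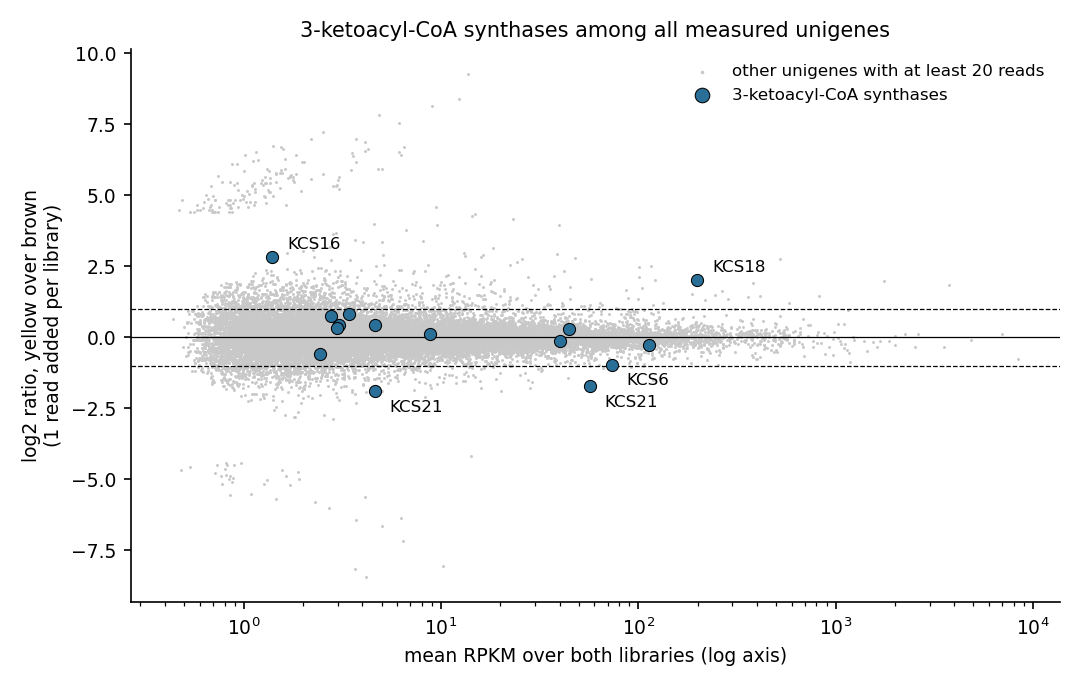
Log2 ratio, yellow over brown (1 read added per library), against mean RPKM over both libraries (log axis) for all 29239 measured unigenes, with the 15 measured KCS members in blue and dashed lines at the 2-fold thresholds. *KCS18* at a log2 ratio of 2.00 and the main *KCS21* at -1.73 lie outside the lines at mean levels above 10 RPKM, and *KCS6* at -0.96 lies just inside.

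The unigenes with the ratio nearest to that of *KCS18* over the 2 libraries, among the 8359 named above, were vacuolar-sorting receptor 1, sucrose synthase 2, a GDSL esterase (At1g54020), a xyloglucan endotransglucosylase (*XTH22*) and oleosin S2-2. *SUS2* (comp52929_c0), which splits sucrose in the filling seed, had 40935 reads in yellow and 11005 reads in brown seeds, a log2 ratio of 1.92. Oleosin S2-2 (comp36497_c0), which coats oil bodies, had 4103 reads in yellow and 946 reads in brown seeds, a log2 ratio of 2.14. Nearest to the main *KCS21* were *CYP86B1*, *RALFL27*, *TSJT1*, *MLP328* and a CASP-like protein (At4g25830), with log2 ratios of -1.78 to -1.54. *CYP86B1* (comp6035_c0), which in Arabidopsis hydroxylates very-long-chain acids for suberin, had 304 reads in yellow and 1056 reads in brown seeds. With 2 libraries this likeness is a description of single ratios.

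The other enzymes of the elongase, taken in a wider list, showed no call. Of 22 measured unigenes in this list 0 were called in either direction, and their median log2 ratio was -0.0054. The dehydratase *PAS2* (comp46840_c0) had 4225 reads in yellow and 3723 reads in brown seeds, a ratio of 1.15, and the enoyl reductase *ECR* (comp47627_c0) had 4340 reads in yellow and 3660 reads in brown seeds. The list also took in plastid carboxyl carrier proteins, such as *BCCP1* (comp50199_c0) with a ratio of 1.26, and enoyl and dienoyl reductases of other compartments. Many of its unigenes were acetyl-CoA carboxylase fragments assigned to 1 gene on A06. The median of the list therefore does not describe the enzymes of the elongation round alone. Log2 ratios in this list ran from -0.88 to 0.76, and the difference between this list and the KCS family was not tested.

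Upstream, the list of plastid condensing enzymes and thioesterases, which also took in 1 mitochondrial condensing enzyme, had no call among 12 measured unigenes and a median log2 ratio of 0.36. *KAS1* (comp55027_c0), which extends most chains in the plastid, had 18173 reads in yellow and 12423 reads in brown seeds, a ratio of 1.48, and *KAS2*, which makes the last plastid extension, a ratio of 1.61. Of 13 desaturases 1 was called higher and the median log2 ratio was 0.66. This was *FAD3* (comp51078_c0), the desaturase that makes linolenic acid, with 7278 reads in yellow and 3151 reads in brown seeds, with a ratio of 2.34 (2.25 to 2.44). The most abundant stearoyl-type desaturase (comp49837_c0) reached 1526 RPKM in yellow and 788 RPKM in brown seeds, a ratio of 1.94, and the omega-6 desaturase of the endoplasmic reticulum (comp46488_c0) had a ratio of 1.06. Acyl-CoA synthetases and binding proteins (28 measured) and acyltransferases of triacylglycerol assembly (8 measured) had no call and medians of 0.07 each. *DGAT1* (comp52592_c0), which adds the last acyl chain of seed oil, had 2110 reads in yellow and 1629 reads in brown seeds, a ratio of 1.31.

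Downstream of the wax synthases, 1 of 6 measured wax genes was called, *CER3* (comp45814_c0), which acts in alkane formation. It had 142 reads in yellow and 71 reads in brown seeds, a ratio of 2.03 with an interval of 1.52 to 2.74. The exporter *ABCG11* (comp54893_c0) had a ratio of 0.641. Of 28 measured unigenes in the suberin and cutin list, 4 were called lower and none higher, with a median log2 ratio of 0.06. The list was matched by gene symbol and took in 1 light-signalling protein that shares the symbol *FAR1* (comp53532_c0, not called). The 4 called lower were 2 unigenes each of *CYP86B1* and *GPAT6*, an acyltransferase of cutin synthesis. The second *CYP86B1* unigene called (comp72880_c0) had 256 reads in yellow and 686 reads in brown seeds, a ratio of 0.379 (0.327 to 0.438). Other measured *CYP86B1* unigenes had fewer reads and were not called. Their ratios were 1.16 (comp35101_c0), 1.31 (comp45977_c0), 1.35 (comp22694_c0) and 0.838 (comp27755_c0). The *GPAT6* unigenes had 42 reads in yellow and 94 reads in brown seeds (comp39120_c0), and 34 in yellow and 75 in brown seeds (comp11194_c0). The most abundant member of this list, *HTH* (comp49567_c0), had a ratio of 0.842.

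Of 9 measured transcription factors known from Arabidopsis to act on seed oil, wax or suberin genes, 1 was called higher. This was *NFYB6* (comp19707_c0), the *LEC1*-like subunit of a factor of embryo maturation, with 76 reads in yellow and 16 reads in brown seeds, a ratio of 4.82 (2.79 to 8.85). A more abundant *NFYB6* unigene (comp52620_c0), added here after its values were seen, had 2298 reads in yellow and 1622 reads in brown seeds, a ratio of 1.44 (1.35 to 1.53), and was not called. *WRI1* (comp51889_c0), the activator of plastid fatty acid synthesis, had 8408 reads in yellow and 9692 reads in brown seeds, a ratio of 0.880. *ABI3* (comp50976_c0), a regulator of seed maturation, had a ratio of 1.43 (1.35 to 1.53) and was not called. *LEC2* (comp47132_c0), also added after its values were seen, went the other way and was not called. It had 340 reads in yellow and 529 reads in brown seeds, a ratio of 0.652 (0.567 to 0.749). *DPBF2* (comp46545_c0) had a ratio of 1.01. Over the 9 measured unigenes the median log2 ratio (1 read added per library) was 0.02, with 5 above 0.

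**Figure D5:**
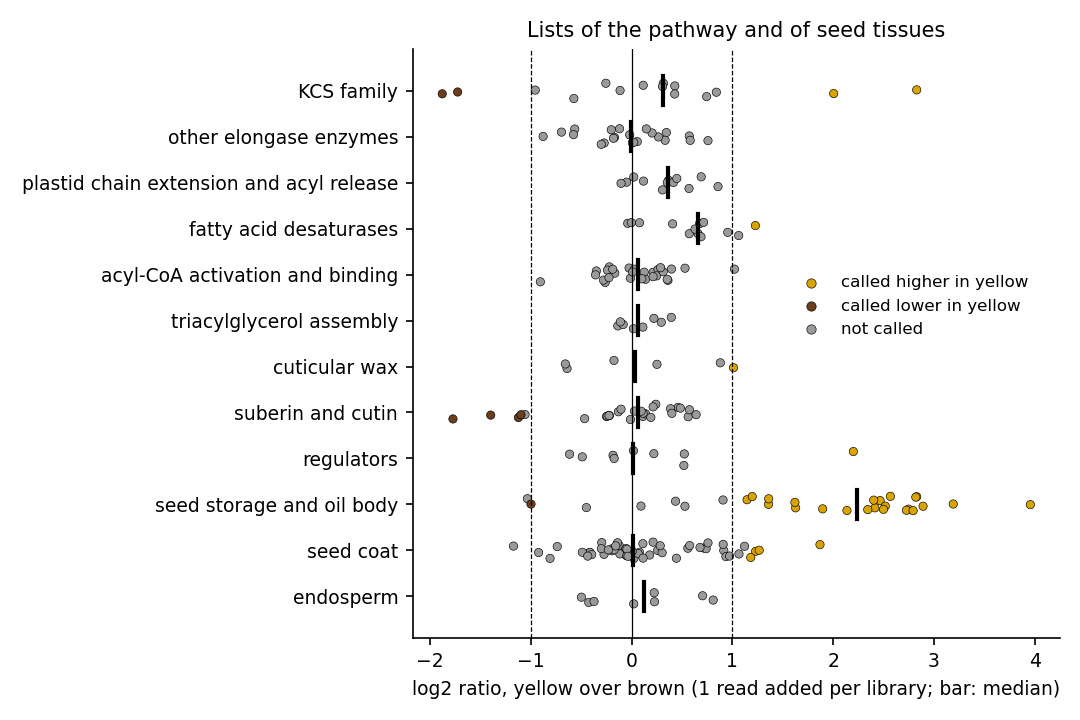
Log2 ratio, yellow over brown (1 read added per library), of each measured unigene in the lists of the pathway and of seed tissues, with a bar at the median of each list and dashed lines at the 2-fold thresholds. The KCS family has points beyond both thresholds, the other elongase enzymes have none, and the seed storage and oil body list has its median at 2.24.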

How the data were processed

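RNA of whole seeds was sequenced from 1 library per line. The authors filtered the reads, assembled both libraries together with Trinity, annotated the unigenes and assigned genes of cv. Darmor-*bzh* with Megablast. Sources used here name neither the aligner nor the counter. The table as deposited by the authors holds estimated counts per unigene, not normalized, and RPKM values made from them. The positions in the text are those of the assigned genes.

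Counts were rounded to whole numbers and scaled by library totals, which are the sums of these counts over all unigenes. Fisher's exact test (two-sided) compared each unigene with the rest of its library, and p-values of all 50366 unigenes were adjusted together (Benjamini-Hochberg). A call needed an adjusted p below 0.05 and a log2 ratio beyond 1 or -1. This replaced the DEGseq test of the study. The formula of that test was used as an alternative, and it called many more unigenes than the study reports. The reason for this gap was not tested. A count of 0 was bounded with 3 reads per library, and 1 read was added per library where lists are summarised. Intervals (95%, Clopper-Pearson) describe counting error alone, since each line had 1 library. No molecular identifiers are named in the sources, so repeat copies of 1 molecule may have been counted as separate reads. Python 3.11.15, SciPy 1.17.1, numpy 2.4.6, pandas 2.3.3, matplotlib 3.10.9, R 4.3.3 and edgeR 4.0.16 were used.

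The members and the 12 lists, which match words in Swiss-Prot descriptions or gene names, were chosen with earlier results of these data known. All members are named. From each other list the rule allows the called unigenes with at least 20 reads and an assigned gene, and the 3 highest by mean RPKM. Not all are printed, and some unigenes outside this rule were added after their values were seen. The 5 unigenes with the nearest log2 ratio are named for *KCS18* and for the main *KCS21*. Alternatives were other scalings, other tests, halved counts, a filter on reads, other fold thresholds, other added reads, RPKM ratios and all KCS descriptions. The *KCS18* sequence and primers were copied from the study's supplementary tables; protein sequences were not used here.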

Additional observations from a re-analysis of the deposited data

How the results depend on the processing

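No paired analysis was possible because each line had 1 library, and no library could be left out. Under the alternatives with a call, the 4 called measured members gave 36 results, of which 32 kept the call and 4 lost it. The members not called gave 99 results, of which 91 stayed not called and 8 gained a call, and 0 of all 135 changed direction. Other tests, the filter on reads and other fold thresholds left the ratio itself as it was. Direction could therefore change only with other scalings or halved counts. A called member could not lose its call under a looser or absent fold threshold. The 5 members called higher became 3 with median-ratio scaling, 3 with the DEGseq formula, 2 with halved counts, 2 when only unigenes with at least 20 reads were tested, and 8 without a fold threshold. Reads summed by assigned gene, an alternative chosen after seeing the data, gave 3 of the 21 genes called higher and 3 called lower. No share over all assigned genes was taken beside these counts. The 3 called lower were the *KCS21* genes. Those called higher were *KCS18*, the *KCS16* gene of A03 and the C01 gene, which had 7 reads in yellow and 0 reads in brown seeds. No single unigene of the C01 gene was called, and the *KCS3* gene lost its call. With edgeR's exact test the count was 2 when the biological coefficient of variation was assumed to be 0.2, and 0 at 0.4. The 3 members called lower became 5 without a fold threshold and 0 at a coefficient of 0.4, and were 2 at 0.2, with halved counts and with at least 20 reads. At 0.2 *KCS18* (adjusted p = 0.000707) and the main *KCS21* (adjusted p = 0.00858) were still called by edgeR's exact test. At 0.4 neither *KCS18* (log2 ratio 2.01) nor the main *KCS21* (log2 ratio -1.73) was called, with adjusted p = 1 for both. The spread between seed lots of 1 line was not measured. Over all unigenes the 1650 calls higher and 737 lower became 1207 and 636 with median-ratio scaling, 1326 and 669 with the DEGseq formula, 348 and 98 at 0.2, 88 and 18 at 0.4, 657 and 208 with halved counts, 943 and 441 with at least 20 reads, 2245 and 1304 at a 1.5-fold threshold, and 4314 and 3674 without a fold threshold. At the 1.5-fold threshold 7 members were called higher, *KCS12* and *KCS1* added, and 4 lower, *KCS6* added. Both the main rule and the DEGseq formula called many more unigenes than the study reports with DEGseq, so neither count stands for the study's calls. Other scalings moved log2 ratios by 0.01 or -0.02.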

Other observations

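3 further unigenes were described as 3-ketoacyl-CoA synthases but had no assigned gene. A *KCS9* fragment (comp47230_c0) had 15 reads in yellow and 18 reads in brown seeds, a ratio of 0.845 (0.397 to 1.78). A *KCS10* fragment (comp7446_c0) had 11 reads in each library, and a *KCS1* fragment (comp12729_c0) had 2 reads in yellow seeds and none in brown. None was called.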
